A study of Mus musculus with 8 samples.

Results

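Corticosteroid-induced genes are genes whose transcription increases when a corticosteroid hormone occupies the glucocorticoid receptor. 10 classical examples were read gene by gene and library by library in the hippocampus of female mice, out of 29442 genes in the count table. The 10 were chosen by name, as known targets, and all 10 passed the filter of at least 1 count, which left 27612 genes for testing. They are Fkbp5, Sgk1, Tsc22d3, Zbtb16, Ddit4, Nfkbia, Errfi1, Cdkn1a, Klf9 and Sult1a1.

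The libraries came from 8 female C57BL/6 J mice aged 6 to 8 weeks. The 4 libraries labelled DHEA (HipR3, HipR4, HipR7 and HipR11) came from mice given dehydroepiandrosterone, an adrenal steroid that is a precursor of androgens and estrogens, at 30 mg/kg/day under the skin for 21 days. The 4 libraries labelled sesame oil (HipR5, HipR9, HipR10 and HipR16) came from mice given the vehicle alone. Both groups went through swimming, tail suspension and open field tests after the injections, and the methods give the dissected region as the ventral hippocampus. Library totals ran from 35748416 to 38038361 counts for DHEA and from 31483772 to 35418297 counts for sesame oil. All 8 markers fixed for the hippocampus were detected in these libraries, with summed levels of 1726 to 1933 counts per 1000000 (CPM). For some genes the deposited labels and the study's own comparison run in opposite directions. Pomc is among them. The paper reports Pomc as higher after DHEA by quantitative PCR in additional hippocampal samples, and describes its sequencing result as matching. By the labels Pomc was lower, as given below. Whether the labels or the study's comparison are right could not be settled here. If all labels were exchanged between the groups, every direction below would turn. An exchange of only some labels would change the values in other ways. All directions follow the deposited treatment labels, so "higher" means higher in the libraries labelled DHEA. HipR9 and HipR11 were registered apart from the other 6 libraries, and the series' design text speaks of 6 tissues. What that separation stands for is not given in the sources used here, so the main results are also given for the other 6 libraries. HipR11 stood apart for these genes, as described below.

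In the unstimulated cell the glucocorticoid receptor waits in the cytoplasm, bound by heat shock proteins and immunophilins. Corticosterone, the main corticosteroid of the mouse, releases it to enter the nucleus, where it binds as a dimer to an inverted repeat of a short half-site and recruits coactivators. In the hippocampus the mineralocorticoid receptor binds the same hormone and many of the same sites, and both take part in the feedback that ends a stress response. Several of the induced genes act as brakes, on the receptor itself (Fkbp5), on inflammatory transcription (Nfkbia, Tsc22d3) or on growth signalling (Ddit4, Errfi1).

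The sequences at the starts of these genes show which of them carry the receptor's motif close to the start site. RefSeq promoter windows on GRCm38.p6, from 250 bases before to 50 bases after a start, were matched by symbol for 9 of the 10 genes, with 18 windows between them. Zbtb16 had no entry. The full inverted repeat, AGAACA and TGTTCT with 3 bases of any kind (NNN) between them, was found in 3 of 32851 windows (0.00913%), and 1 of those 3 belonged to Sgk1, the others being Acnat2 and Gm35041. A shorter form, GNACA and TGTNC with the same 3-base gap, lay in 0.475% of all windows and, of the 9 genes, again in Sgk1 alone. Both are their own reverse complements, so one search covers both strands. The half-site, AGAACA or TGTTCT on either strand, was common, in 19.0% of all windows and in 5 of the 18 windows of these genes, those of Sgk1, Sult1a1 and Tsc22d3. Each full motif contains 2 half-sites. The windows printed here are 1 for each of the 3 genes with a match and that of Fam107a, an induced gene of the wider list described further on. Capitals mark the full motif, the shorter form and the half-sites. The matches describe these letters in these windows, and they are not evidence of binding.

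Sgk1, chr10:21993640-21993939, GRCm38.p6, plus strand: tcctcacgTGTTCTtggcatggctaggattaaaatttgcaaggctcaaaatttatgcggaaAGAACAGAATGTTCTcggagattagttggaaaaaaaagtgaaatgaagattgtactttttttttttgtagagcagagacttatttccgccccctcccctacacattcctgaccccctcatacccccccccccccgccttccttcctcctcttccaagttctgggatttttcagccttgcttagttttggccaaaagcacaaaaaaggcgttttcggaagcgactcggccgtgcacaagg
Sult1a1, chr7:126676369-126676668, GRCm38.p6, minus strand: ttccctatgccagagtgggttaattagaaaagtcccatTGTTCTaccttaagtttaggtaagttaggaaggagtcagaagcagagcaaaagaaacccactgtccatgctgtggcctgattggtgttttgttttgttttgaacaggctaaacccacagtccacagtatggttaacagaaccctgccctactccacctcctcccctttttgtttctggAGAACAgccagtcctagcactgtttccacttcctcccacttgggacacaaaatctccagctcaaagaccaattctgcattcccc
Tsc22d3, chrX:140600473-140600772, GRCm38.p6, minus strand: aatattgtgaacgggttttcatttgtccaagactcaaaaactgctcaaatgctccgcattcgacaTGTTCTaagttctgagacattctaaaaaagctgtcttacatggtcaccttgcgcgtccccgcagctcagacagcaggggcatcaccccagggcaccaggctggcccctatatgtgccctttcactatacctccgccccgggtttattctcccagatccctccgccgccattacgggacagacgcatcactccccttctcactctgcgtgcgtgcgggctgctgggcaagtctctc
Fam107a, chr14:8309730-8310029, GRCm38.p6, minus strand: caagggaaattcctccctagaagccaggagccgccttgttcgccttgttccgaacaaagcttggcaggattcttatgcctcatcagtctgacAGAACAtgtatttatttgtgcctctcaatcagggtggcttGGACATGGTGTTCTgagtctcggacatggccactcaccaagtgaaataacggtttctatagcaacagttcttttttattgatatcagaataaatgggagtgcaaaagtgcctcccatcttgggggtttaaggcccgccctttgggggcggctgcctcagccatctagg

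In the Sgk1 window the full motif, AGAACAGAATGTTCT, began 189 bases before the start, and a further half-site lay 242 bases before the start. Sgk1 had 6 windows in the table, and this was the only one with the full motif. The other 2 Sgk1 windows with a match, not printed here, each held 1 half-site, TGTTCT at 195 bases before the start in chr10:21881934-21882233 and AGAACA at 13 bases before it in chr10:21991973-21992272. The Sult1a1 window held TGTTCT at 212 bases and AGAACA at 34 bases before the start, too far apart to form the repeat. Tsc22d3 held a single half-site, 185 bases before the start. In Fam107a the shorter form, GGACATGGTGTTC, began 118 bases before the start and overlapped a half-site.

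The level of the 10 genes per unit of length, as deposited FPKM (fragments per kilobase of transcript and per 1000000 mapped fragments), differed widely. Klf9, a zinc finger transcription factor induced by corticosteroids and thyroid hormone, was the most abundant at 55.7 ± 3.63 FPKM (SD, n = 8 libraries). Its lowest library, 51.7 FPKM, lay above the highest library of Ddit4, 38.1 FPKM. Ddit4, an inhibitor of the growth kinase complex mTORC1, followed at 27.5 ± 5.06 FPKM. Sgk1, a kinase that regulates ion channels and transporters, stood at 17.8 ± 7.51 FPKM, with the widest spread in FPKM of the 10. Then came Fkbp5 at 14.0 FPKM, Errfi1 at 11.6 FPKM, Tsc22d3 at 11.4 FPKM, Zbtb16 at 10.4 FPKM and Nfkbia at 9.36 FPKM. Cdkn1a, at 4.26 FPKM, and Sult1a1, at 2.03 FPKM, were the least abundant. From Ddit4 downwards every gene overlapped its next neighbour in this order across the libraries.

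**Figure D1:**
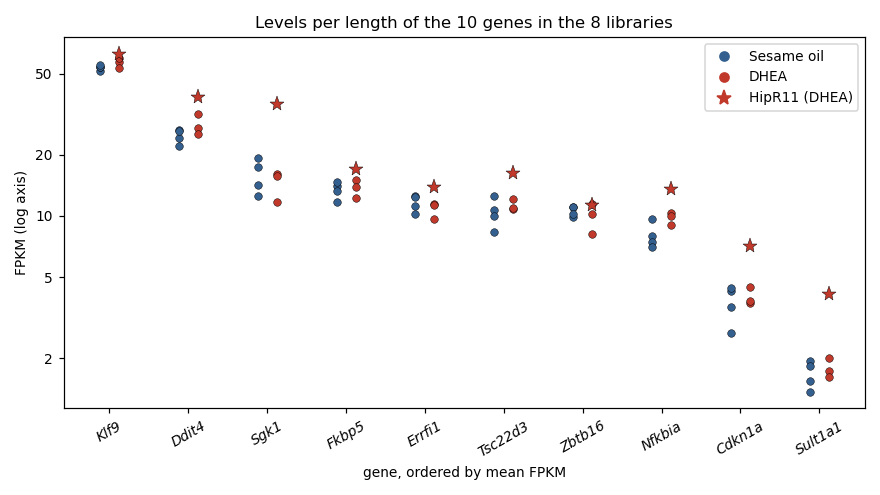
Deposited FPKM (log axis) of the 10 corticosteroid-induced genes in the 8 libraries, ordered by mean FPKM; circles are libraries, and the star is HipR11, labelled DHEA. Klf9, at 51.7 to 62.3 FPKM, lies above all libraries of the other 9 genes, and the star of Sgk1, at 35.4 FPKM, stands well above its other 7 points.

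No gene of the 10 passed the test between the groups. With edgeR's quasi-likelihood test, 0 of the 10 had a Benjamini-Hochberg adjusted p under 0.05, and neither had any of the 27612 genes tested (0.0%), although DESeq2 called 153 of all genes and 0 of the 10. At an unadjusted p under 0.05, 5 of the 10 (Nfkbia, Ddit4, Tsc22d3, Klf9 and Sult1a1) were higher in DHEA and none lower, beside 9.31% of all genes in either direction and 4.82% in the higher direction. Among the 12780 genes that averaged 100 or more counts per library, as all 10 did, the share of higher genes was 8.08%. The fold change was above 0 for 9 of the 10, beside 51.2% of all genes, and the median log2 fold change of the 10 was 0.31 beside 0.0079 over all genes tested. None of the 10 had groups without overlap, beside 5.04% of all genes. The groups of 4 allow a smallest exact two-sided permutation p of 0.0286, over 70 allocations.

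A single library, HipR11, was highest for 9 of the 10 genes, the exception being Zbtb16. HipR11 was the highest of the 8 libraries for 11.8% of the 12780 genes that averaged 100 or more counts, and the other libraries for 7.04% (HipR9) to 23.4% (HipR4). Without HipR11, 2 of the 10 had an unadjusted p under 0.05 (Nfkbia and Ddit4, both higher), beside 11.9% of all genes in either direction and 5.74% in the higher direction, and the median log2 fold change of the 10 was 0.12. Within the 6 libraries registered together, 0 of the 10 did, beside 10.3% of all genes and 5.09% in the higher direction. A term for the separate registration, fitted over all 8 libraries, left 4 of the 10, all higher, beside 4.53% of all genes in the higher direction.

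**Figure D2:**
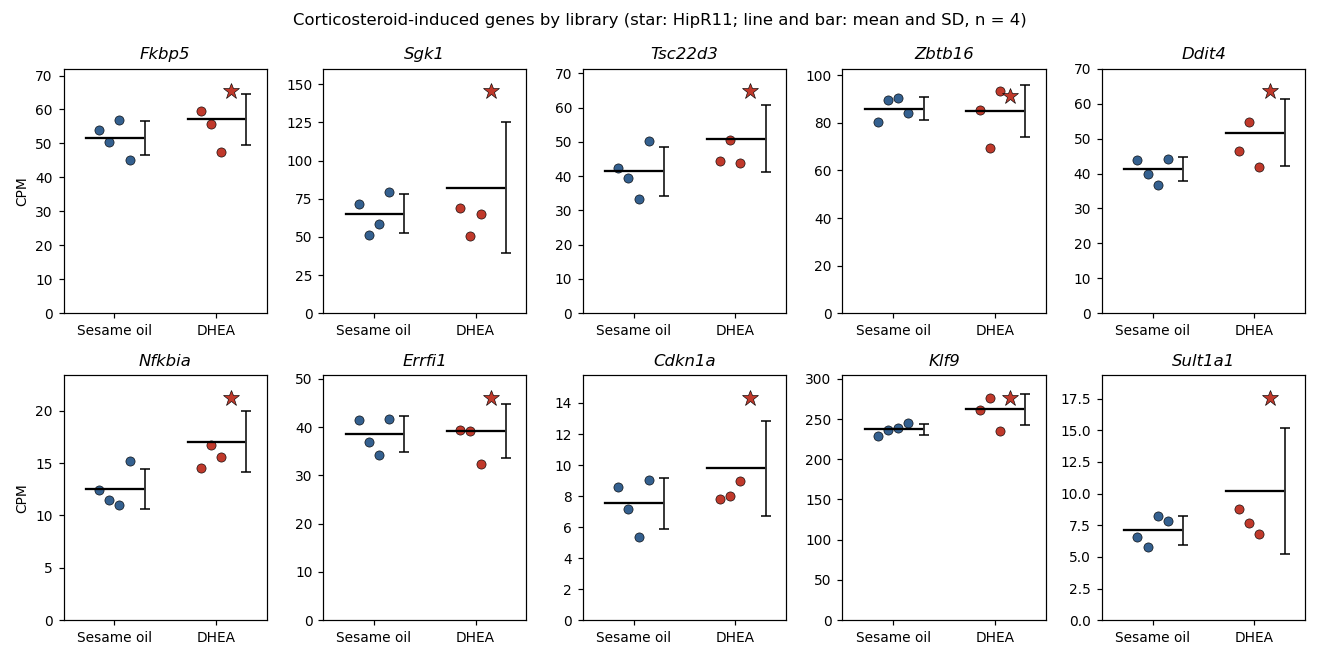
TMM-normalized CPM of each gene in the 4 sesame oil and 4 DHEA libraries; each point is a library, the star is HipR11, and lines and bars are mean and SD (n = 4). HipR11 is the highest point in every panel except Zbtb16, and Sgk1 in HipR11, at 145.7 CPM, stands above 7 libraries at 50.4 to 79.6 CPM.

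Among the inhibitors of inflammatory transcription, Nfkbia was the gene with the smallest p of the 10. Nfkbia encodes the protein that holds NF-κB in the cytoplasm. It was at 14.6, 16.8, 15.6 and 21.2 CPM in HipR3, HipR4, HipR7 and HipR11, and at 12.4, 11.5, 11.02 and 15.2 CPM in HipR5, HipR9, HipR10 and HipR16. All 4 DHEA libraries lay above 3 of the 4 sesame oil libraries, and the groups overlapped through HipR16 and HipR3. The means were 17.0 ± 2.94 CPM and 12.5 ± 1.88 CPM (SD, n = 4), a log2 fold change of 0.45 (SE 0.13, edgeR adjusted p = 0.2928, exact permutation p = 0.0571). Without HipR11 it was 0.32 (adjusted p = 0.3031), and an unadjusted p under 0.05 was found in 8 of 8 fits that left out a library. In the 6 libraries registered together it was 0.28, and the unadjusted p was not under 0.05.

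Tsc22d3, which encodes the leucine zipper protein GILZ, a mediator of the anti-inflammatory action of glucocorticoids, was at 44.5, 50.4, 43.9 and 64.9 CPM in HipR3, HipR4, HipR7 and HipR11. In HipR5, HipR9, HipR10 and HipR16 it was at 42.4, 39.5, 33.2 and 50.3 CPM. HipR16 reached the level of HipR4, so the groups overlapped, and HipR10 was the lowest library. The means were 50.9 ± 9.74 CPM and 41.3 ± 7.08 CPM (SD, n = 4), a log2 fold change of 0.30 (SE 0.12, edgeR adjusted p = 0.4594, exact permutation p = 0.143). Without HipR11 it was 0.16 (adjusted p = 0.5824).

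Of the brakes on growth signalling, Ddit4 differed between the groups more than Errfi1. Ddit4 was at 46.4, 54.8, 42.0 and 63.7 CPM in HipR3, HipR4, HipR7 and HipR11. Its sesame oil libraries HipR5, HipR9, HipR10 and HipR16 held 43.9, 39.9, 36.8 and 44.1 CPM. HipR3, HipR4 and HipR11 lay above every sesame oil library, and HipR7 fell among them. The means of 51.7 ± 9.58 CPM and 41.2 ± 3.47 CPM (SD, n = 4) gave a log2 fold change of 0.33 (SE 0.11, edgeR adjusted p = 0.3249, exact permutation p = 0.0857). The value without HipR11 was 0.21 (adjusted p = 0.3781), and the unadjusted p stayed under 0.05 in 8 of 8 fits that left out a library.

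Errfi1, a feedback inhibitor of the epidermal growth factor receptor, was at 39.4, 39.1, 32.3 and 46.1 CPM in HipR3, HipR4, HipR7 and HipR11. HipR5, HipR9, HipR10 and HipR16 held 41.5, 36.9, 34.2 and 41.6 CPM. The groups lay over each other, with the lowest and the highest library both labelled DHEA, and the log2 fold change was 0.024 (SE 0.098, edgeR adjusted p = 0.9495). Its sign turned to -0.062 without HipR11.

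Cdkn1a, an inhibitor of cyclin-dependent kinases, was at 7.81, 8.02, 8.99 and 14.3 CPM in HipR3, HipR4, HipR7 and HipR11. It was at 8.60, 7.14, 5.36 and 9.01 CPM in HipR5, HipR9, HipR10 and HipR16. HipR11 alone exceeded the highest sesame oil library, and HipR10 was low. The log2 fold change was 0.38 (SE 0.19, edgeR adjusted p = 0.5564), and 0.14 without HipR11 (adjusted p = 0.7332).

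Fkbp5, the receptor's immunophilin co-chaperone and the best known of these genes, was at 59.6, 55.7, 47.4 and 65.5 CPM in HipR3, HipR4, HipR7 and HipR11. The sesame oil libraries HipR5, HipR9, HipR10 and HipR16 were at 53.8, 50.5, 56.8 and 45.3 CPM. The groups overlapped over most of their range, since HipR7 lay below 3 sesame oil libraries. The means were 57.1 ± 7.60 CPM and 51.6 ± 4.95 CPM (SD, n = 4), and the log2 fold change was 0.14 (SE 0.092, edgeR adjusted p = 0.6429, exact permutation p = 0.286). Without HipR11 it was 0.072 (adjusted p = 0.7472).

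Sgk1, the gene with the full motif printed above, had the largest single departure of the 10 in CPM. It was at 68.6, 50.4, 64.7 and 145.7 CPM in HipR3, HipR4, HipR7 and HipR11. In HipR5, HipR9, HipR10 and HipR16 it was at 71.6, 51.2, 58.5 and 79.6 CPM. HipR11 was 2.25-fold above the median of the other 7 libraries, and the other 3 DHEA libraries lay within the sesame oil range or just under it. The means were 82.4 ± 43.0 CPM and 65.2 ± 12.8 CPM (SD, n = 4), and the log2 fold change of 0.34 (SE 0.22, edgeR adjusted p = 0.6447, exact permutation p = 0.686) became -0.091 without HipR11 (adjusted p = 0.7764).

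Sult1a1, a sulfotransferase of phenols and catecholamines, behaved much like Sgk1. It was at 8.78, 7.66, 6.82 and 17.6 CPM in HipR3, HipR4, HipR7 and HipR11, and at 6.55, 5.75, 8.24 and 7.84 CPM in HipR5, HipR9, HipR10 and HipR16. HipR11 was 2.29-fold above the median of the other 7 libraries, and only HipR3 and HipR11 exceeded the highest sesame oil library. The log2 fold change was 0.52 (SE 0.23, edgeR adjusted p = 0.5027), the largest of the 10, and 0.13 without HipR11 (adjusted p = 0.7391).

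The transcription factors of the list differed least between libraries. Klf9 was at 261.1, 275.9, 235.3 and 276.5 CPM in HipR3, HipR4, HipR7 and HipR11, and at 229.1, 235.9, 239.2 and 245.6 CPM in HipR5, HipR9, HipR10 and HipR16. HipR7 was the one DHEA library within the sesame oil range. The means of 262.2 ± 19.3 CPM and 237.4 ± 6.86 CPM (SD, n = 4) gave a log2 fold change of 0.14 (SE 0.062, edgeR adjusted p = 0.5006), and this was 0.12 without HipR11 (adjusted p = 0.4996).

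Zbtb16, a zinc finger repressor also known as PLZF, was at 85.3, 69.3, 93.5 and 91.5 CPM in HipR3, HipR4, HipR7 and HipR11. It was at 80.4, 89.4, 90.3 and 84.0 CPM in HipR5, HipR9, HipR10 and HipR16. The lowest library was HipR4 and the highest HipR7, both labelled DHEA. The log2 fold change was -0.020 (SE 0.083, edgeR adjusted p = 0.9537).

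**Figure D3:**
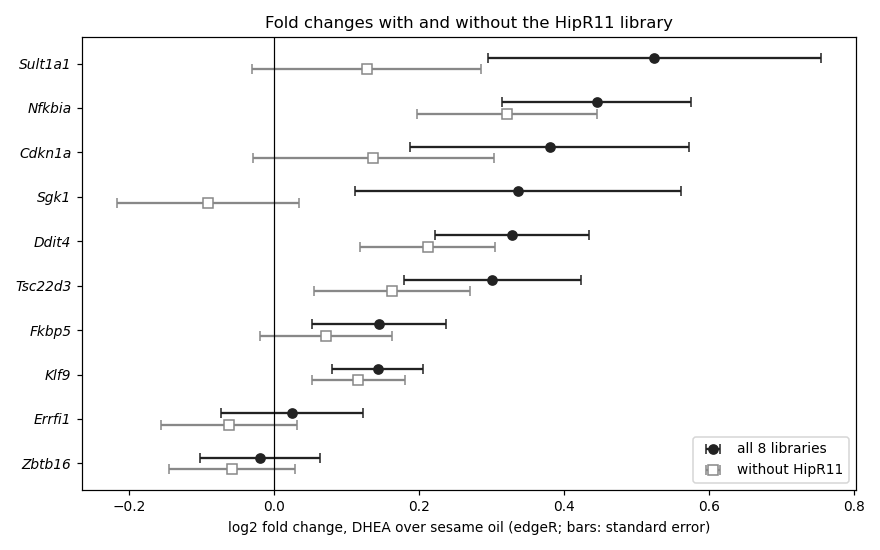
Log2 fold change of DHEA over sesame oil (edgeR, bars are standard errors) for the 10 genes, from all 8 libraries (filled circles) and without HipR11 (open squares). Every open square lies to the left of its circle, Sgk1 moves from 0.34 to -0.091, and Nfkbia and Ddit4 stay above 0.2.

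To describe each library by these genes, log2(CPM + 0.5) was centred on each gene's mean and averaged over the 10. HipR11 stood at 0.516 on this scale, and the other 7 libraries between -0.205 (HipR10) and 0.021 (HipR3 and HipR16). HipR10 was the lowest library for 4 of the 10 genes. Outside HipR11 the genes did not share one order of libraries, since HipR4 was the lowest library for Sgk1 and Zbtb16 and lay above every sesame oil library for Nfkbia, Ddit4 and Klf9. Over the 8 libraries, Pearson's r of a gene with the average was 0.92 for Sult1a1, 0.909 for Sgk1 and for Tsc22d3, 0.573 for Fkbp5 and 0.091 for Zbtb16. Over the 7 libraries without HipR11 the r was 0.876 for Tsc22d3, 0.843 for Nfkbia, 0.761 for Ddit4 and 0.728 for Cdkn1a. These are the 4 genes lowest in HipR10. It was 0.486 to 0.565 for Sult1a1, Sgk1, Errfi1 and Klf9, -0.063 for Fkbp5 and -0.493 for Zbtb16. Each gene is part of the average it was compared with, and the libraries share 1 sequencing design, so these values are descriptions.

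Among the genes outside all lists with the pattern most like the average of the 10, screened over the same 12780 genes, were Actl6a (r = 0.982, n = 8 libraries), Slc2a1 (r = 0.956), Zfp488 (r = 0.953) and Dusp10 (r = 0.951). Slc2a1, the glucose transporter of the blood-brain barrier, was at 104.0 CPM in HipR11 and at 69.3 to 80.9 CPM in the other 7 libraries. Without HipR11 the r of Slc2a1 was 0.71 and that of Actl6a 0.936. Those most like Fkbp5 were Clec2d (r = 0.954), Lefty1 (r = 0.949), Psen2 (r = 0.949), Pdlim4 (r = 0.937) and Mctp1 (r = 0.935), and without HipR11 they were at 0.948, 0.938, 0.912, 0.903 and 0.886 in that order.

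A wider list of 28 other known corticosteroid-induced genes showed the same library standing apart. HipR11 was the highest library for 19 of the 28, beside the 11.8% given above. It was at least 1.5-fold above the median of the other 7 libraries for 8 of the 28 and for 3 of the 10 (Sult1a1, Sgk1 and Cdkn1a), beside 1.61% of those averaging 100 or more counts. Of those 12780 genes, Plin4 ranked first and Hif3a second by this ratio. Plin4, which coats lipid droplets, was at 14.8 CPM in HipR11 and at 1.52 to 3.23 CPM in the others, 5.44-fold above their median. Hif3a, a member of the hypoxia-inducible factor family, was at 14.9 CPM in HipR11 and at 2.48 to 5.19 CPM in the others, 4.22-fold above their median. Lcn2, a secreted iron-carrier binding protein of the acute phase response, was at 12.2 CPM against 0.610 to 1.63 CPM, 12.6-fold above the median of the others, and its mean count of 88.4 kept it out of the ranking. Map3k6 (2.55-fold), Arrdc2 (1.99-fold), Klf15 (1.60-fold), Zfp36 (1.53-fold) and Pdk4 (1.51-fold) made up the 8. The shares of 11.8% and 1.61% cover genes averaging 100 or more counts, as 25 of the 28 did. Among the 8, Lcn2 and Map3k6 did not, at mean counts of 88.4 and 81.8. Fam107a, whose promoter window is printed above, was at 612.6 CPM in HipR11 and at 390.4 to 480.8 CPM in the others. The shorter motif form lay in a window of 4 of the 24 genes of this list with an entry, Fam107a, Map3k6, Mt1 and Txnip.

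**Figure D4:**
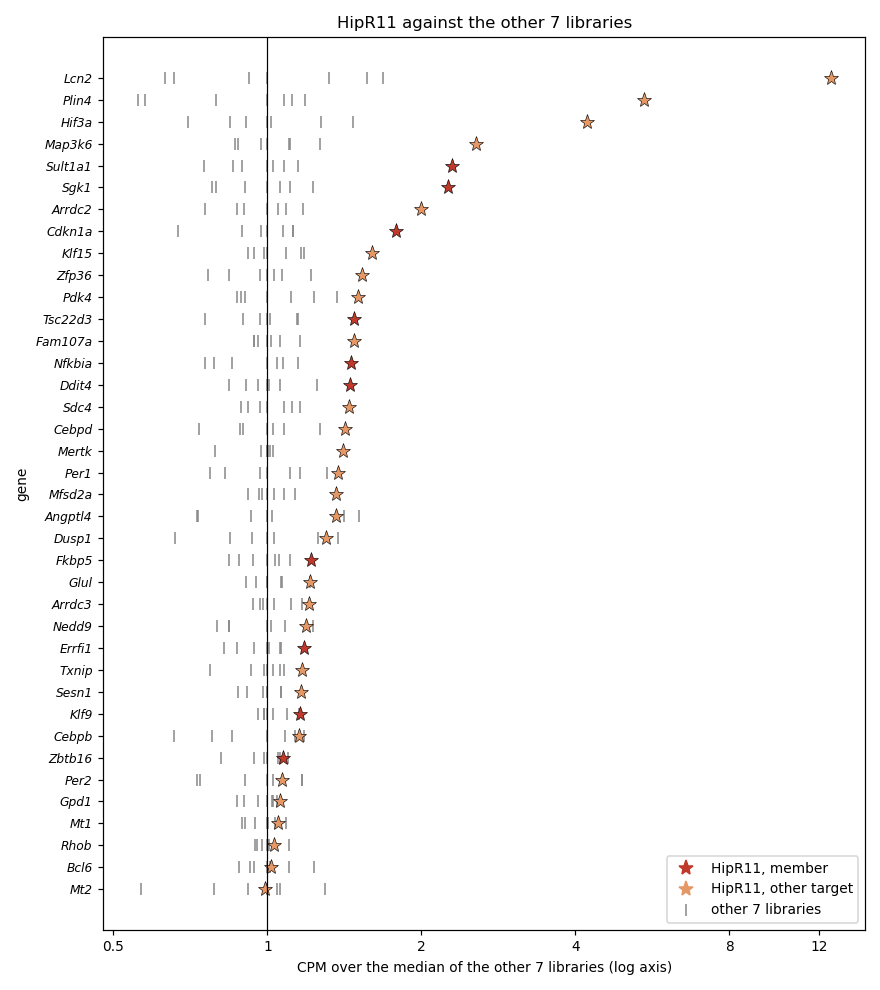
CPM of each gene over the median of the 7 libraries other than HipR11 (log axis), for the 10 corticosteroid-induced genes (dark stars) and the 28 other targets (light stars) in HipR11, with the other 7 libraries as ticks. Lcn2, Plin4 and Hif3a stand at 12.6, 5.44 and 4.22 in HipR11, and Sult1a1 and Sgk1 near 2.3.

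Between the groups, 23 of the 28 other targets had a log2 fold change above 0, and 9 were higher and 1 lower at an unadjusted p under 0.05, beside 4.82% higher and 4.49% lower among all genes. None passed at an adjusted p under 0.05 with edgeR. The median log2 fold change of the 28 was 0.20, and 0.048 without HipR11, where 6 were higher and 3 lower at an unadjusted p under 0.05, and leaving out any 1 library gave 6 to 13 higher. For 4 of the 28 every DHEA library lay above every sesame oil library, beside 2.42% of all genes. Among the genes averaging 100 or more counts, as 25 of the 28 did, that share was 4.23%. Of the same genes, 8.08% were higher at an unadjusted p under 0.05. Pdk4, the kinase that turns off pyruvate dehydrogenase, was at 12.3, 13.6, 15.1 and 16.6 CPM in HipR3, HipR4, HipR7 and HipR11 and at 9.63 to 11.03 CPM in sesame oil (log2 fold change 0.51, SE 0.12, and 0.43 without HipR11). Sdc4, a cell surface proteoglycan, was at 70.8, 73.5, 68.4 and 91.7 CPM against 56.5 to 63.5 CPM (log2 fold change 0.35). Glul, the glutamine synthetase of astrocytes and the most abundant of the 28 by count, was at 1853, 2113, 1866 and 2113 CPM against 1582 to 1744 CPM (log2 fold change 0.24). Arrdc3, an arrestin-domain adaptor, was at 62.9, 67.9, 71.4 and 73.4 CPM against 57.2 to 61.0 CPM (log2 fold change 0.22). These 4 genes were higher in each DHEA library, HipR11 or not. The others higher at an unadjusted p under 0.05 were Mt2 at 0.43, Hif3a at 1.14, Lcn2 at 1.75, Mfsd2a at 0.23 and Txnip at 0.20 on the log2 scale, and without HipR11 they were at 0.47, 0.45, -0.17, 0.14 and 0.16 in that order. Of these 5, Mt2 and Hif3a kept an unadjusted p under 0.05 without HipR11.

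Per2, a clock gene with corticosteroid-responsive transcription, went the other way. It was at 25.2, 25.6, 31.4 and 37.0 CPM in HipR3, HipR4, HipR7 and HipR11 and at 34.7 to 40.6 CPM in sesame oil (log2 fold change -0.34, SE 0.11). HipR11 was the only DHEA library within the sesame oil range. Without HipR11, Per2 was at -0.46, Per1 at -0.30 and Dusp1, a phosphatase that acts on MAP kinases, at -0.38 on the log2 scale, and these are the 3 lower genes. Per1, Per2 and Dusp1 also respond to neuronal activity. Of 11 activity-induced genes, 5 (Fos, Junb, Egr1, Egr2 and Npas4) were lower and 0 higher at an unadjusted p under 0.05, and of 11 clock genes 2 (Nr1d1 and Per3) were lower, beside 4.49% of all genes. Without HipR11 the lower genes were 8 of the 11 activity-induced and 5 of the 11 clock genes, beside 6.12% of all genes. The lower activity-induced genes numbered 1 without HipR3 and 2 without HipR5 or HipR16. The lower clock genes numbered 1 without HipR3 or HipR4 and 3 without HipR7. The part of activity and time of day in the values of Per1, Per2 and Dusp1 was not tested.

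**Figure D5:**
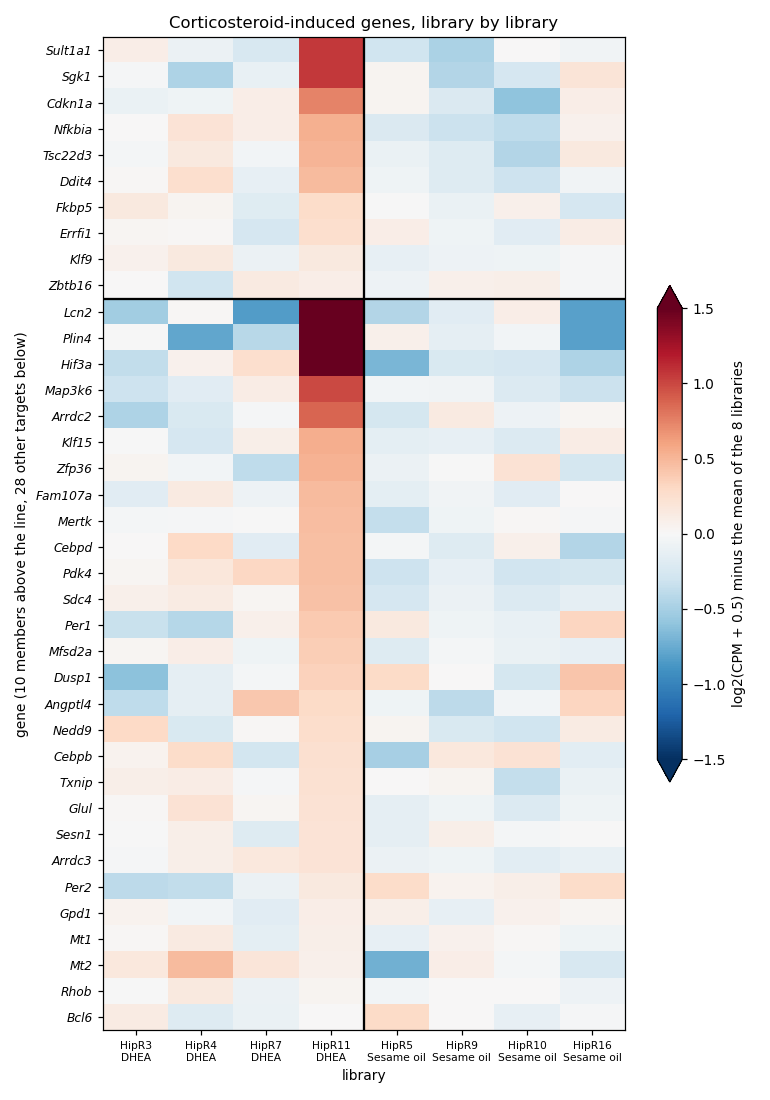
Log2(CPM + 0.5) minus the mean of the 8 libraries for the 10 corticosteroid-induced genes (above the line) and the 28 other targets (below), with the 4 DHEA libraries on the left and the 4 sesame oil libraries on the right; the colours end at 1.5, which Plin4, Hif3a and Lcn2 exceed in HipR11. The HipR11 column is above 0 for all 10 genes, and the other 3 DHEA columns hold both signs.

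The receptors of these hormones were not high in HipR11. None of 6 steroid receptor genes had an unadjusted p under 0.05 over all libraries, beside 9.31% of all genes, and HipR11 was the highest library for none of them. Without HipR11, 1 of the 6, Nr3c1, did, at a log2 fold change of 0.18, beside 11.9% of all genes in either direction and 5.74% in the higher direction, so that 1 of 6 lies near the share over all genes. Nr3c1 did so also without HipR7, at 0.19, and in the 6 libraries registered together. Nr3c1, the glucocorticoid receptor gene, was at 129.5, 139.9, 112.0 and 114.8 CPM in HipR3, HipR4, HipR7 and HipR11 and at 106.7 to 117.5 CPM in sesame oil (log2 fold change 0.14, SE 0.072). Nr3c2, the mineralocorticoid receptor gene and the most abundant of the 6 by count, was at 237.0, 212.8, 177.0 and 170.4 CPM against 155.2 to 203.4 CPM (log2 fold change 0.11, SE 0.097). For both genes HipR3 and HipR4 were the highest libraries and HipR11 lay within the sesame oil range.

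Of 10 chaperones and co-chaperones of the receptor complex, 2 were lower and 0 higher at an unadjusted p under 0.05, beside 4.49% lower and 4.82% higher among all genes. Without HipR11, 1 was lower (Dnajb1) and 2 were higher (Hsp90aa1 and Ptges3), and across the fits that left out 1 library 0 to 3 were lower (0 without HipR5, HipR7 or HipR16). The 2 lower genes over all libraries were Dnajb1, a co-chaperone of the Hsp70 proteins, at a log2 fold change of -0.19 (SE 0.09), and Stip1, which bridges Hsp70 and Hsp90, at -0.17 (SE 0.079). The most abundant by count, Hsp90ab1 and Hspa8, had log2 fold changes of -0.065 and -0.097. HipR11 was the highest library for none of the 10.

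Among 5 enzymes of steroid metabolism, 2 were higher at an unadjusted p under 0.05, beside 4.82% of all genes, and leaving out 1 library gave 1 or 2, with Srd5a1 alone without HipR11. Hsd11b1, which regenerates active corticosterone inside the cell, was at 26.6 (HipR7) to 30.9 CPM (HipR4) in DHEA and at 20.9 to 28.2 CPM in sesame oil (log2 fold change 0.21, SE 0.095). Srd5a1, a steroid reductase that acts on corticosterone, progesterone and testosterone, was at 12.9, 10.9, 9.46 and 10.9 CPM against 7.83 to 9.63 CPM (log2 fold change 0.31, SE 0.12). HipR3 and HipR7 lay within the sesame oil range for Hsd11b1, and HipR7 alone did for Srd5a1. Hsd11b2, the enzyme that inactivates corticosterone, had a mean count of 0.25.

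Among the receptor's coregulators, Crebbp, an acetyltransferase, and Ncoa3, a coactivator, were lower at an unadjusted p under 0.05, with log2 fold changes of -0.19 (SE 0.076) and -0.17 (SE 0.075). The groups overlapped for both. Ncor1, a corepressor of nuclear receptors and the most abundant of the list by count, was lower without overlap, as were 2.62% of all genes, at 301.2 to 316.2 CPM against 325.9 to 332.6 CPM, and Nrip1 was higher without overlap, at 58.1 to 63.6 CPM against 53.9 to 57.9 CPM. Among genes averaging 100 or more counts, as all 8 coregulators did, 8.46% were without overlap in either direction. Ncoa1, the second most abundant, had a log2 fold change of -0.051.

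Markers of other cells also moved between libraries. These are bulk samples, in which a change in the number of cells of a type and a change of RNA per cell cannot be told apart. The counts of this paragraph, at an unadjusted p under 0.05, stand beside 4.82% higher and 4.49% lower among all genes. Among genes averaging 100 or more counts, as all markers of this paragraph did, 8.08% were higher. All 8 of 8 myelin markers were higher, with a summed level of 6387, 8075, 6316 and 6551 CPM in HipR3, HipR4, HipR7 and HipR11 and of 5111, 6145, 5090 and 4309 CPM in HipR5, HipR9, HipR10 and HipR16. The most abundant was Mbp, none was at 0, and Cldn11 had groups without overlap. By this sum HipR4 was the highest library, and HipR11 was close to HipR3 and HipR7. Of 8 endothelial markers 3 were higher, with a sum of 318.3, 341.1, 277.1 and 324.7 CPM in HipR3, HipR4, HipR7 and HipR11 and of 269.7 to 290.5 CPM in sesame oil, and Flt1 the most abundant. Ly6c1, at 30.9 to 41.4 CPM against 24.1 to 28.7 CPM, and Slco1a4, at 70.8 to 88.6 CPM against 54.2 to 66.3 CPM, were without overlap. Of 6 astrocyte markers 4 were higher, with a sum of 5334 to 6385 CPM against 4636 to 5425 CPM. Of 6 microglia markers 3 were higher, with a sum of 315.6 (HipR11) to 420.4 CPM (HipR4) against 289.3 to 335.3 CPM. Of 7 neuronal markers 1 was lower (Rbfox3, at 213.2 to 225.4 CPM against 240.8 to 254.6 CPM, without overlap). Of 8 hippocampal markers 1 (Spink8) and of 6 thalamic markers 1 (Rora) were higher, and of 5 blood markers none had an unadjusted p under 0.05. Without HipR11 the higher genes were 8 myelin, 4 endothelial, 4 astrocyte and 4 microglia markers, beside 5.74% of all genes, with Gad2 of the neuronal markers, and neither Spink8 nor Rora was among them. Leaving out each library in turn gave 6 to 8 higher myelin and 3 to 4 higher endothelial markers, but 1 to 4 astrocyte markers (1 without HipR4, HipR5 or HipR10) and 2 to 4 microglia markers. Their part in the values of the 10 genes was not tested.

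Choroid plexus markers varied most between libraries. Their summed level was 4513, 95.98, 2226 and 4177 CPM in HipR3, HipR4, HipR7 and HipR11 and 3149, 516.3, 2053 and 2284 CPM in HipR5, HipR9, HipR10 and HipR16. The most abundant was Ttr, none of the 7 was at 0, and none had an unadjusted p under 0.05 over all libraries. Without HipR4, 7 of the 7 were higher at an unadjusted p under 0.05, with Ttr at a log2 fold change of 0.86 in place of 0.47, and without any other library none was. HipR4 and HipR9, the lowest by this sum, were also the lowest 2 libraries for Sgk1, while HipR3, the highest, held Sgk1 at 68.6 CPM and HipR11 held it at 145.7 CPM. The pituitary genes Gh and Prl were lower without overlap, Gh at 0 to 0.0821 CPM in DHEA against 0.151 to 6.95 CPM in sesame oil and Prl at 0 to 0.219 CPM against 0.543 to 16.6 CPM, with HipR10 the highest in both. Of 6 pituitary genes tested, 3 were lower at an unadjusted p under 0.05, beside 4.49% of all genes. Pomc, counted with Gh and Prl, had overlapping groups and a log2 fold change of -1.16. Across the fits that left out 1 library, the value of Pomc ran from -1.48 to -0.27.

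Markers of leukocytes and of inflammation, chosen after the values of HipR11 were seen, were in part also high in that library. For 13 leukocyte genes the summed level was 104.9 CPM in HipR11 and 64.2 to 80.8 CPM in the other 7, with Coro1a the most abundant, and HipR11 was the highest library for 7 of them. The share of 11.8% given above is no measure for this list, of which 4 genes averaged 100 or more counts. The T cell marker Cd3e, the B cell marker Ms4a1 and the neutrophil marker Ly6g had mean counts of 0.75, 0.875 and 0.375. For 12 inflammation genes, Lcn2 among them, the sum was 40.7 CPM in HipR11 and 12.04 to 18.2 CPM in the others, with Osmr the most abundant. Lcn2, at 12.2 CPM, and Osmr, at 11.7 CPM, made up most of the HipR11 sum. HipR11 was the highest library for 6 of the 12, not for Il1b or Saa3, and it was the lowest for Cxcl10. The share of 11.8% is no measure for this list either, of which 2 genes averaged 100 or more counts. The part of these cells and genes in the HipR11 values of the 10 was not tested.

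The relation of a gene's GC content to its level differed between the groups, with Spearman's rho across genes from -0.159 to -0.0103 in DHEA libraries and from 0.0729 to 0.184 in sesame oil libraries. With each library's GC trend removed, among genes averaging 10 or more counts, 2 of the 10 genes had an unadjusted p under 0.05, beside 11.6% of the genes in that fit in either direction and 4.46% in the higher direction. They were Nfkbia at a log2 fold change of 0.45 (adjusted p = 0.3352) and Ddit4 at 0.35 (adjusted p = 0.3583). Tsc22d3, Klf9 and Sult1a1 no longer had an unadjusted p under 0.05, at log2 fold changes of 0.28, 0.11 and 0.50 in this fit. The fit also used a stricter count filter than the main test. Stricter filters were also run without the GC step, with at least 10 counts in total or with edgeR's filterByExpr. Under both, Tsc22d3 and Sult1a1 had no unadjusted p under 0.05 either, so their lost calls cannot be assigned to GC content. Klf9 kept an unadjusted p under 0.05 under both. The cause of the lost calls was not tested.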

How the data were processed

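RNA-seq was run on polyA RNA from 8 hippocampi, 4 per group. Per the labels and methods, the authors trimmed reads with fastp, mapped them with HISAT2 to GRCm39 and counted them per gene with HTSeq. The versions and the annotation are not given in the sources used here. The authors deposited 1 table of raw read counts and 1 of FPKM, by gene symbol without coordinates. Columns of the authors' own comparison (fold changes and p-values) were not used. The deposited counts were tested with edgeR 4.0.16 (R 4.3.3; glmQLFit and glmQLFTest, TMM, at least 1 count in total, no covariates) with Benjamini-Hochberg adjustment over 27612 genes. CPM are TMM-normalized, and SE is the log2 fold change over the root of F. Tests were two-sided. DESeq2 1.42.0 and limma 3.58.1 on FPKM were alternatives. On simulated data for the comparison of DHEA with sesame oil (27612 genes simulated, 26655 tested), edgeR recovered 72% of genes changed by 0.5 and 99% of those changed by 1 on the log2 scale (100 genes each), with 51 false calls. Beside the 72 and 99 genes recovered, these false calls exceed the nominal share. The changed genes were drawn from those averaging 100 or more counts. No outlying library such as HipR11 was simulated, so the test's behaviour with such a library is not shown. The labels do not say more of the animals behind the libraries, so p-values measure the spread between these libraries. The genes and lists were chosen with earlier results of these data known, and the leukocyte and inflammation lists after seeing the values. Named were all 10 genes. Of each pathway list, genes with an unadjusted p under 0.05, the 2 most abundant and the 2 of largest change were named. From the other lists, genes without overlap were named, and so were the 5 genes of most similar pattern. Some genes that these rules select are not reported here. Promoters came from RefSeq on GRCm38.p6, another build than that of the counts.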

Additional observations from a re-analysis of the deposited data

Results flagged for a closer look

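In 5 of 78 groups of 4 libraries examined, the highest or lowest library was set off by a gap that, as a share of the group's range, passed Dixon's 95% critical value, where chance gives about 1 in 20 groups, or 3.9 of 78. The 5 found are near that number. All 78 groups come from the same 8 libraries, so they are not independent. In all 5 the library was HipR11, the highest of those labelled DHEA. For the average of the 10 centred genes, the gap of HipR11 to the next library was 0.842 of the range. For Mertk, a receptor of phagocytes and astrocytes, it was 0.959, with HipR11 at 65.8 CPM and the others labelled DHEA at 46.5 to 47.3 CPM. For Lcn2 it was 0.922, for Plin4 0.889 and for Hif3a 0.83.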

How the results depend on the processing

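No gene had an adjusted p under 0.05 with edgeR, and 2571 had an unadjusted p under 0.05. DESeq2 called 153 genes, robust moderation 4, the 6 libraries registered together 38, and a term for the registration 4. Leaving out 1 library called 0 to 93, with 93 without HipR7 and 12 without HipR11. At an unadjusted p under 0.05 with a fold change of at least 2, the threshold of the methods, 442 genes were called with edgeR and 164 with DESeq2, the tool of the methods. Of the 10 corticosteroid-induced genes, 5 had an unadjusted p under 0.05. This became 3 with at least 10 counts, 3 with filterByExpr, 3 with robust moderation, 1 with limma on log2(FPKM + 1), 2 on log2(FPKM + 0.1), 2 with the GC trend removed, 0 in the 6 libraries, 0 with the fold change of at least 2 added and 0 at an adjusted p. Leaving out 1 library gave 2 to 6, with 2 without HipR11, 2 without HipR9 and 3 without HipR10. The log2 fold change of Sgk1 turned to -0.091 without HipR11 and -0.19 in the 6 libraries. That of Zbtb16 turned to 0.059 without HipR4 and 0.0046 without HipR10. That of Errfi1 turned to -0.0084 and -0.0095 with limma on FPKM, -0.008 with the GC trend removed, -0.029 without HipR10, -0.062 without HipR11 and -0.083 in the 6 libraries. The other 7 genes kept their direction under every alternative. The cause of these shifts was not tested. The fits on 6 libraries, with a registration term and with the GC trend removed at a mean count of at least 10 were chosen after seeing the data. The planned GC fit over all tested genes was not run, because GC was known for 77.2% of them. No paired analysis was possible because each library carries its own number, shared with no library of the other group. Counts of 191 or more per library for each of the 10 leave counting error small beside the spread between libraries.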

Other observations

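Genes outside the fixed lists were also high in HipR11, and they were picked here after their values were seen. Etnppl, which encodes a phospholyase of ethanolamine phosphate, was at 52.0 CPM in HipR11 and at 9.34 to 17.8 CPM in the other 7 libraries, 4.02-fold above their median and the third by this ratio after Plin4 and Hif3a. Wfikkn2 was at 8.13 CPM against 1.43 to 4.44 CPM. Galnt15 was at 8.29 CPM against 2.84 to 4.31 CPM. Apold1, a gene of activated endothelium, was at 10.9 CPM against 3.26 to 6.22 CPM. From the leukocyte and inflammation lists, Ptprc, the common leukocyte antigen, was at 10.1 CPM against 3.21 to 5.24 CPM, and the adhesion molecule Icam1 at 6.95 CPM against 1.83 to 3.98 CPM.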
